A study of Homo sapiens with 12 samples.

Results

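The hypoxia response genes described here are HIF1A, EGLN3, ADM, VEGFA, CA9, SLC2A1, PDK1, BNIP3, NDRG1 and LOX, a set of 10 genes of the hypoxia-inducible factor pathway. They were followed through every probe set that the array annotation maps to exactly 1 of these genes. These were 19 of the 54675 probe sets and covered 9 of the 10 genes. The annotation used here maps no probe set to CA9 alone, so this gene has no value below.

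RNA was measured in HK-2 cells, an immortalised line of human proximal tubule epithelium, on 12 Affymetrix whole-genome arrays. Cells received a low dose of a compound labelled Aa, or its vehicle as control, for 24 h or 48 h, and each of these 4 groups held 3 arrays called biological replicates. What Aa stands for, how much was given and what the vehicle was are not stated in the sources used. All groups share 1 cell line and a medium with insulin, hydrocortisone, transferrin and epidermal growth factor, and no group was labelled as hypoxic. The series belongs to a search for expression signatures of nephrotoxic compounds, and the question asked of these genes is which of them differed between Aa and control cells at each time. Nothing in the labels says how the replicate cultures differed, so the p-values measure only the spread between these samples, which may be technical.

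Cells sense oxygen through prolyl hydroxylases of the EGLN family. With oxygen present they hydroxylate the alpha subunits of hypoxia-inducible factor (HIF), which the VHL ubiquitin ligase then marks for breakdown. When oxygen is short the alpha subunit persists, pairs with ARNT, binds the letters ACGTG or GCGTG near its target genes and raises their transcription. HIF1A is therefore controlled mostly at the level of its protein, which arrays do not measure. In the proximal tubule, a segment with high oxygen use, the pathway is known for its part in the response to ischaemia and in kidney injury. The targets cover blood vessel growth and tone (VEGFA, ADM), glucose uptake and its diversion from the mitochondria (SLC2A1, PDK1), pH control (CA9), mitochondrial turnover (BNIP3), stress (NDRG1), collagen cross-linking (LOX) and feedback on HIF itself (EGLN3).

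Promoter sequences were taken from a table made from RefSeq (GRCh38.p14), in which 8 of the 10 genes were matched; the promoters of VEGFA and NDRG1 were not used here. The 250 bases before the most upstream start of each gene were searched on both strands for ACGTG and GCGTG, whose reverse strands read CACGT and CACGC; the palindrome CACGTG counts once on each strand. Matches were present in 5 of the 8 promoters (62.5%), against 58.4% of 8926 promoters of genes tested on the arrays and 43.1% of all 27305 genes in the table. BNIP3 had 6 matches, LOX had 4, and HIF1A, ADM and CA9 had 1 each, while EGLN3, SLC2A1 and PDK1 had 0. HIF1A and PDK1 have 2 starts each in that table and LOX has 3. Matches before their other starts were not counted. A match is a description of letters in this window and not a binding site. The promoters of ADM, BNIP3 and LOX are shown because ADM had the largest difference of the set, upward, while BNIP3 and LOX hold the most matches and had lower means with Aa. They are written 5′ to 3′ on the strand of the gene, in lower case with the matches in capitals. The ADM window lies at chr11:10304823-10305072 (plus strand), the BNIP3 window at chr10:131981924-131982173 (minus strand) and the LOX window at chr5:122078260-122078509 (minus strand).
ADM: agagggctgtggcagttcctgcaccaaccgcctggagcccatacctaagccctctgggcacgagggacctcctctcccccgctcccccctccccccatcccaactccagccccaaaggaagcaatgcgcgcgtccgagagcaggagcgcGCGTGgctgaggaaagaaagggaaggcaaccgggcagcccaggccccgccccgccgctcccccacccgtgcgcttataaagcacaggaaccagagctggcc
BNIP3: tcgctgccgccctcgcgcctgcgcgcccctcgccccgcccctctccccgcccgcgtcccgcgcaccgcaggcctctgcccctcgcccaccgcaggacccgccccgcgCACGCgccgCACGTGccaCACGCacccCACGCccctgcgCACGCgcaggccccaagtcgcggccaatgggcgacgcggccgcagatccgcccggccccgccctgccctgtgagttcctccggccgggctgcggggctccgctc
LOX: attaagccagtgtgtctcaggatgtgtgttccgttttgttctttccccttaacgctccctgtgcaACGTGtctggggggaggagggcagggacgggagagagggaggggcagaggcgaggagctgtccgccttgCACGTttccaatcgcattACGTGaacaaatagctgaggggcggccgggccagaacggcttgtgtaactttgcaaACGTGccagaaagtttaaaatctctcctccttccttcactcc

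The values are log2 signals as deposited, and a difference is Aa minus control on that log2 scale, with the standard error (SE) from limma and n = 3 arrays per group throughout. A gene is represented by its brightest probe set with a mean log2 signal of at least 4 over the 12 arrays. By this rule 16 of the 19 probe sets and 9 genes were tested among 10791 genes. The 3 left out were 201249_at of SLC2A1, 239798_at of PDK1 and 213640_s_at of LOX. The words rose and fell are used for an adjusted p under 0.05 (limma, Benjamini-Hochberg over all genes tested). The replicate numbers pair the arrays, so the adjusted p with the replicate number as a block, called the paired fit, is given where it changes the call of a member. For the further lists it is given where it changes a count, and for single genes at the times described.

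The 9 genes did not share a direction. At 24 h VEGFA rose and PDK1 fell, and 7 genes passed the threshold in neither direction. Of all genes tested, 10.3% rose, 12.8% fell and 23.1% did either. At 48 h ADM and VEGFA rose, HIF1A, PDK1 and BNIP3 fell, and EGLN3, SLC2A1, NDRG1 and LOX did not pass. Of all genes 17.8% rose and 20.1% fell at 48 h, 37.8% in all. The paired fit called 4 members at 24 h (1 up, 3 down) and 6 at 48 h (2 up, 4 down), where it called 41.3% and 54.8% of all genes. The median difference of the 9 members was 0.03 at 24 h and 0.08 at 48 h, beside -0.02 and -0.0009 over all genes. The members ranged from -1.10 to 0.57 at 24 h and from -1.04 to 2.37 at 48 h. The 3 Aa arrays lay wholly above the controls in 1 member and wholly below in 3 at 24 h, where 40.5% of all genes were separated in this way. At 48 h they lay above in 2 and below in 3, against 48.4% of all genes. In bulk RNA, fewer cells expressing a gene and less of its RNA per cell cannot be told apart.

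**Figure D1:**
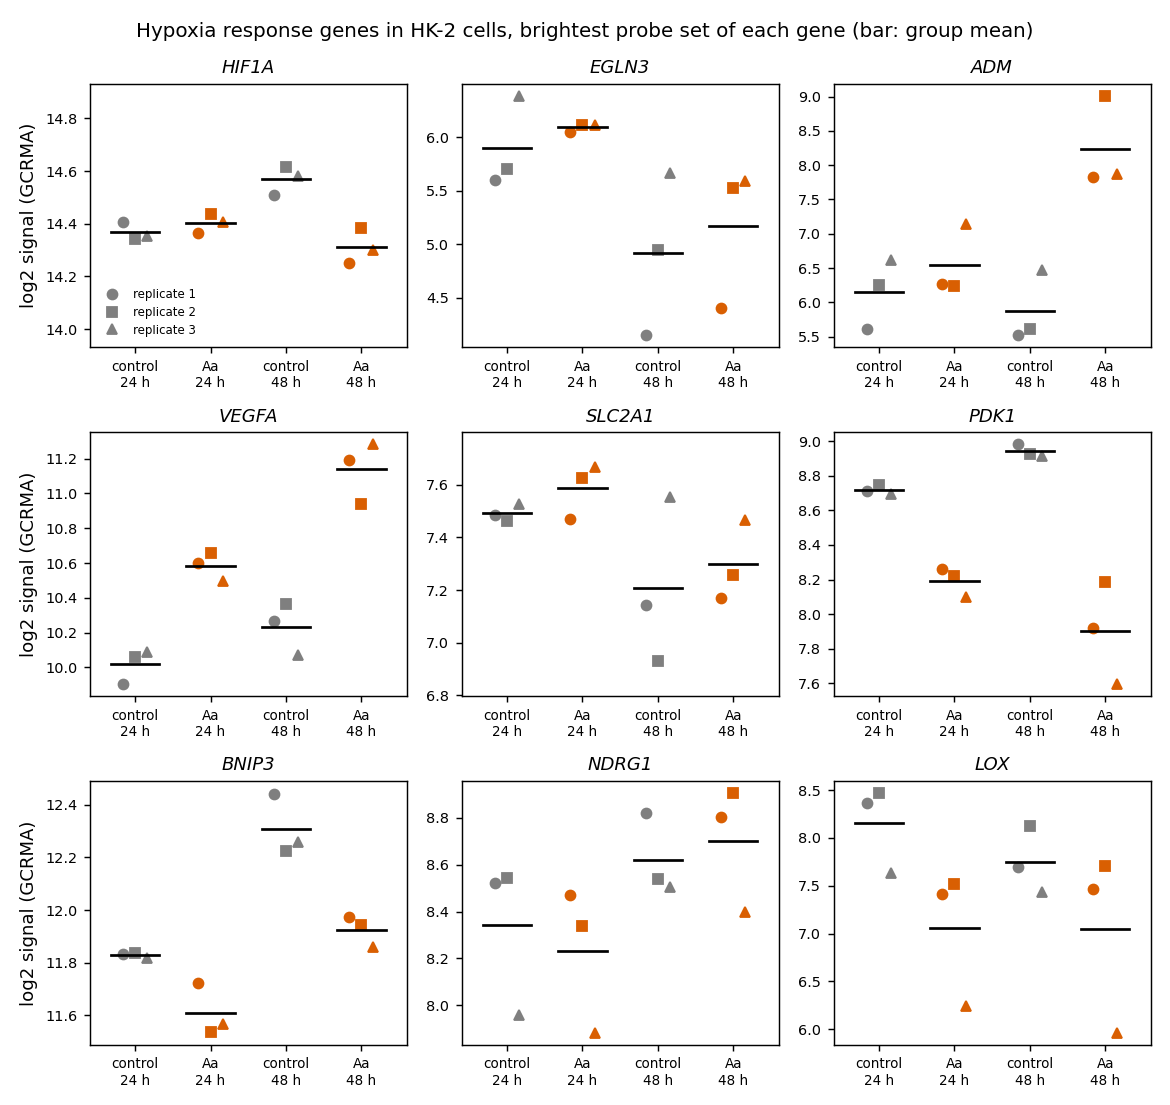
Log2 signal (vertical axis) of the brightest probe set of 9 hypoxia response genes on each of 12 arrays, by group; symbols mark the replicate number, black bars the mean of 3 arrays, and each panel has its own scale that does not start at 0. ADM and VEGFA are highest in the 48 h Aa group (means 8.24 and 11.14), and PDK1 is lowest there (7.90). The arrays of LOX, ADM, EGLN3 and NDRG1 spread widely within some groups.

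HIF1A encodes the oxygen-regulated alpha subunit of HIF-1. The log2 signal of its probe set, 200989_at, was 14.41, 14.34 and 14.35 in the 24 h controls and 14.36, 14.44 and 14.41 with Aa. At 48 h it was 14.51, 14.61 and 14.58 in the controls and 14.25, 14.38 and 14.30 with Aa. The groups overlapped at 24 h, with a difference of 0.03 (95% interval -0.14 to 0.21). At 48 h every Aa array lay below every control, and HIF1A fell by 0.26 (SE 0.08, adjusted p = 0.0243 in limma), which is 1.20-fold. This was the smallest of the changes called in the set, and 8 of 20 alternative settings lost the call, with adjusted p up to 0.169. Among these were the fits without control array 2 or 3 and without Aa array 1 or 3 of the 48 h groups.

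EGLN3, the prolyl hydroxylase PHD3, limits HIF and is itself a HIF target. The brighter of its probe sets, 219232_s_at, gave 5.60, 5.71 and 6.39 in the 24 h controls and 6.05, 6.12 and 6.11 with Aa. At 48 h the controls read 4.15, 4.95 and 5.66 and the Aa arrays 4.40, 5.52 and 5.59. The groups overlapped at both times, and the spread within the 48 h groups (SD 0.76 and 0.67) exceeded the difference of 0.25 (95% interval -0.61 to 1.12). At 24 h the difference was 0.19 (95% interval -0.67 to 1.06). The dimmer, 222847_s_at, differed by 0.06 at 24 h and by 0.63 at 48 h (adjusted p = 0.0902 over probe sets, 0.0207 in the paired fit). Between the control groups, 48 h minus 24 h, EGLN3 differed by -0.98 (SE 0.39, adjusted p = 0.252, 0.0305 in the paired fit).

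ADM, which encodes the vasodilator peptide adrenomedullin, had the largest change of the set. The signal of its probe set, 202912_at, was 5.61, 6.26 and 6.61 in the 24 h controls and 6.27, 6.24 and 7.14 with Aa, so the groups overlapped. It was 5.52, 5.62 and 6.47 in the 48 h controls and 7.82, 9.01 and 7.87 with Aa. The lowest 48 h Aa array thus lay above each of the other 9 arrays. At 24 h the difference was 0.39 (SE 0.40, adjusted p = 0.531, 95% interval -0.49 to 1.27). At 48 h ADM rose by 2.37 (SE 0.40, adjusted p = 0.00128 in limma), a 5.16-fold rise. The same-number pairs gave 2.30, 3.40 and 1.40 at 48 h. The rise passed in 20 of 20 alternative settings, from 1.85 to 2.85.

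The ADM difference was larger at 48 h than at 24 h by 1.98 (SE 0.56, 95% interval 0.73 to 3.22). In the main model this difference between times had an adjusted p of 0.148, and in the paired fit it passed with 0.032. The main model called 0 of 9 members for the difference between times and 0.825% of all genes; the paired fit called 1 member, ADM, and 11% of all genes. The difference was between 1.26 (without replicate 2) and 2.53 (without replicate 3) over 25 alternatives. For the other called genes it was 0.34 for VEGFA (adjusted p = 0.385), -0.51 for PDK1 (0.232), -0.29 for HIF1A (0.256) and -0.16 for BNIP3 (0.606), all in limma. The 4 group means of ADM ran 5.87 ± 0.52 (SD, n = 3) in the 48 h controls, 6.16 ± 0.51 in the 24 h controls, 6.55 ± 0.51 in the 24 h Aa group and 8.24 ± 0.67 in the 48 h Aa group. The first 3 neighbours in this order differ by less than their SD.

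VEGFA, the main growth factor of blood vessels, rose at both times. Its brightest probe set, 210512_s_at, gave 9.90, 10.06 and 10.09 in the 24 h controls and 10.60, 10.66 and 10.49 with Aa. The 48 h controls read 10.27, 10.37 and 10.07 and the Aa arrays 11.19, 10.94 and 11.28. No Aa array overlapped the controls of its time. The rise was 0.57 at 24 h (SE 0.12, adjusted p = 0.00626 in limma), or 1.48-fold, and 0.90 at 48 h (SE 0.12, adjusted p = 0.000314), or 1.87-fold. The order of the group means was control at 24 h (10.02 ± 0.10, SD, n = 3), control at 48 h (10.24 ± 0.15), Aa at 24 h (10.59 ± 0.08) and Aa at 48 h (11.14 ± 0.18). The 2 control groups overlap, with a difference of 0.22 (95% interval -0.04 to 0.47).

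All 4 VEGFA probe sets had higher means with Aa at both times. At 24 h their differences ran from 0.49 to 0.58 and 2 of the 4 passed (adjusted over probe sets). In the paired fit the other probe sets passed as well, 210513_s_at with 0.0173 and 211527_x_at with 0.0428. At 48 h they ran from 0.90 to 1.00 and 4 of 4 passed, with adjusted p from 0.000366 to 0.0308. The dimmest, 211527_x_at, whose name marks sequence shared with other transcripts, had the weakest support at both times (0.265 and 0.0308). The 24 h call for the gene was lost without replicate 1 (0.50, adjusted p = 0.14) and when its most variable probe set was used (0.49, 0.248). The 48 h call held in 19 of 19 alternatives, from 0.75 to 1.07.

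SLC2A1 encodes GLUT1, the glucose transporter of the basal supply. The signal of 201250_s_at was 7.49, 7.46 and 7.53 in the 24 h controls and 7.47, 7.62 and 7.67 with Aa. It was 7.14, 6.93 and 7.55 in the 48 h controls and 7.17, 7.26 and 7.47 with Aa. The groups overlapped at both times. The difference was 0.09 at both (95% interval -0.23 to 0.42 at 24 h and -0.24 to 0.41 at 48 h). A second probe set was dim on every array, with 2.15 to 2.21.

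PDK1 encodes a kinase that inhibits pyruvate dehydrogenase and so keeps pyruvate out of the mitochondria. It is a target that hypoxia raises, and here it fell at both times. The brightest probe set, 226452_at, gave 8.71, 8.74 and 8.69 in the 24 h controls and 8.26, 8.22 and 8.10 with Aa. At 48 h the controls read 8.98, 8.93 and 8.91 and the Aa arrays 7.92, 8.19 and 7.60. The Aa arrays lay below all controls of both times. PDK1 fell by 0.52 at 24 h (SE 0.13, adjusted p = 0.0147 in limma), 1.44-fold, and by 1.04 at 48 h (SE 0.13, adjusted p = 0.000254), 2.05-fold. All 3 same-number pairs were lower with Aa at each time.

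The second PDK1 probe set, 206686_at, gave 7.34, 7.15 and 7.40 in the 24 h controls and 6.19, 6.82 and 6.66 with Aa. At 48 h it read 6.62, 7.13 and 7.69 in the controls and 5.86, 6.53 and 5.81 with Aa. It ran the same way, by -0.74 at 24 h (adjusted p = 0.0812 over probe sets, 0.0389 in the paired fit) and -1.07 at 48 h (0.0133). The 48 h call held in 20 of 20 alternatives, from -1.19 to -0.89. The 24 h call was lost in 4 of 20: without replicate 1, without replicate 3, without Aa array 3, and with the second probe set. The PDK1 probe set left out as dim had 4.19 on 1 array, that of Aa replicate 2 at 24 h.

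BNIP3 encodes a mitochondrial outer membrane protein that marks mitochondria for autophagy. Its brighter probe set, 201849_at, gave 11.83, 11.84 and 11.82 in the 24 h controls and 11.72, 11.54 and 11.57 with Aa. The 48 h controls read 12.44, 12.22 and 12.26 and the Aa arrays 11.97, 11.94 and 11.86. Every Aa array lay below the controls of its time, while the 48 h Aa arrays lay above the 24 h controls. At 24 h the difference was -0.22 (SE 0.09, adjusted p = 0.106, 0.0288 in the paired fit), and that of 201848_s_at was -0.25 (0.127 over probe sets, 0.0475 in the paired fit). At 48 h BNIP3 fell by 0.38 (SE 0.09, adjusted p = 0.0078 in limma), 1.30-fold, and 201848_s_at fell by 0.35 (adjusted p = 0.0307 over probe sets). The 48 h call was lost without replicate 1 (adjusted p = 0.0785) and without replicate 3 (0.0835).

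Among controls BNIP3 was higher at 48 h than at 24 h by 0.48 (SE 0.09, adjusted p = 0.0551, 0.00418 in the paired fit). This exceeds the 48 h difference with Aa in size. The main model called 0 of 9 members between the control times, and 0.5% of all genes. The paired fit called 2, BNIP3 higher and EGLN3 lower, and 17.8% of all genes. The median difference of the members between control times was 0.20, beside -0.006 over all genes, and the range was -0.98 to 0.48.

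NDRG1 encodes a stress-induced cytoplasmic protein that hypoxia is known to raise. The signal of its probe set, 200632_s_at, was 8.52, 8.54 and 7.96 in the 24 h controls and 8.47, 8.34 and 7.88 with Aa. At 48 h the controls read 8.82, 8.54 and 8.51 and the Aa arrays 8.80, 8.90 and 8.40. The groups overlapped at both times, with differences of -0.11 (95% interval -0.57 to 0.34) and 0.08 (-0.38 to 0.53). Replicate 3 was the lowest array in each of the 4 groups.

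LOX encodes lysyl oxidase, the secreted enzyme that cross-links collagen and elastin. Its brightest probe set, 215446_s_at, gave 8.36, 8.47 and 7.64 in the 24 h controls and 7.41, 7.51 and 6.24 with Aa. At 48 h the controls read 7.70, 8.12 and 7.44 and the Aa arrays 7.47, 7.71 and 5.96. The groups were separate at 24 h and overlapped at 48 h, and replicate 3 was lowest in all 4 groups. The differences were -1.10 at 24 h (SE 0.47, adjusted p = 0.116) and -0.71 at 48 h (SE 0.47, adjusted p = 0.26), and neither passed. In the paired fit both passed, with 0.0035 and 0.0187, and Aa was lower in 3 of 3 pairs at each time. Without replicate 3 the 24 h difference of -0.95 also passed (0.0275). Over 19 alternatives the differences ran from -1.36 to -0.69 at 24 h and from -1.04 to -0.16 at 48 h. The values nearest 0 were those without Aa array 3 of the same time, and without replicate 3 the 48 h difference was -0.32. The 48 h pairs were unequal, at -0.23, -0.41 and -1.47.

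The second LOX probe set, 204298_s_at, spread less. It gave 7.25, 7.63 and 7.36 in the 24 h controls and 6.60, 6.73 and 6.00 with Aa, and 6.99, 6.67 and 6.78 in the 48 h controls and 5.74, 6.24 and 5.17 with Aa. Aa lay below all controls of its time, by -0.97 at 24 h (SE 0.26, adjusted p = 0.0217 over probe sets in limma) and -1.10 at 48 h (SE 0.26, adjusted p = 0.00876). The call on LOX therefore depends on the probe set and on the block, while the sign was the same in all of them. The remaining probe set was dim, with 2.14 to 2.97.

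**Figure D2:**
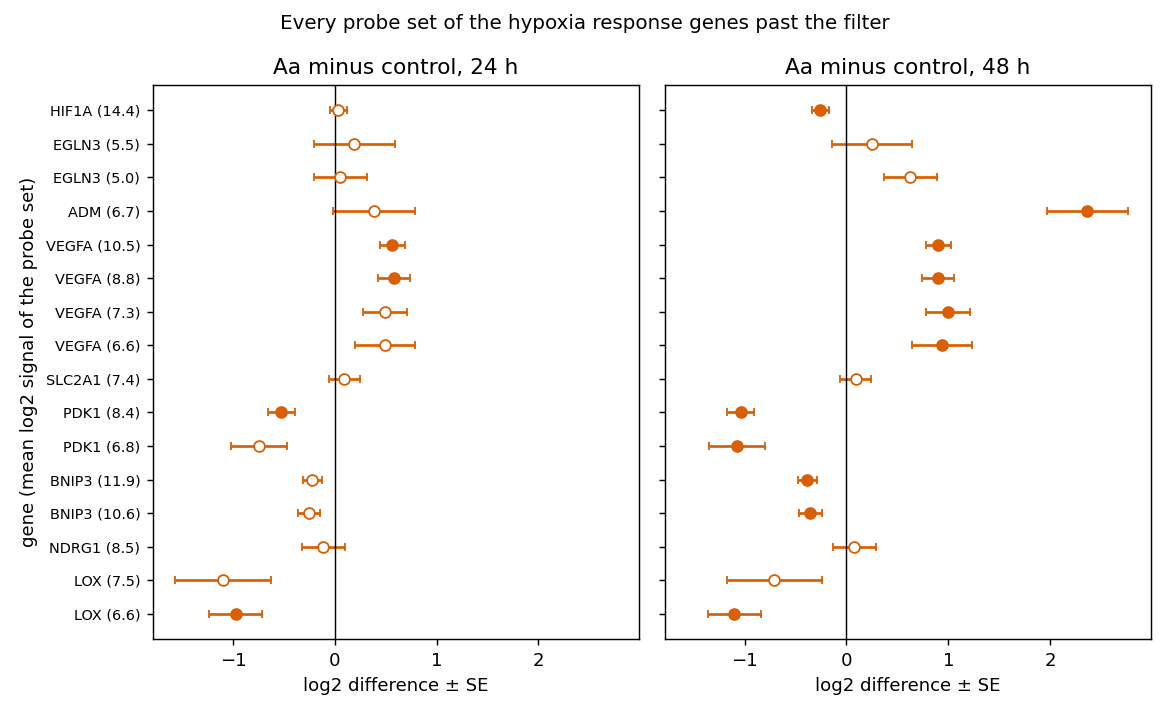
Log2 difference, Aa minus control (horizontal axis, bars ± SE, 3 arrays per group), of the 16 member probe sets past the signal filter at 24 h and 48 h; filled points have an adjusted p under 0.05 over all probe sets tested. The 4 VEGFA probe sets lie to the right at both times and those of PDK1, BNIP3 and LOX to the left, and 4 points are filled at 24 h against 11 at 48 h.

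Taking the 16 probe sets singly, 4 passed at 24 h, 2 up and 2 down, and 11 passed at 48 h, 5 up and 6 down. Over all 22515 probe sets tested the shares were 22.6% and 33.2%. The 5 members with several probe sets past the filter, EGLN3, VEGFA, PDK1, BNIP3 and LOX, had all of them on the same side of 0 at each time. The counts rest on few arrays. Without replicate 1 the main model called 0 members and 0 member probe sets at 24 h, and 3 members and 5 probe sets at 48 h. Over all genes it then called 536 and 1549, in place of 2494 and 4083. Without replicate 3 it called 3 members at 48 h, and 21.5% of all genes. Without Aa array 3 at 24 h it called 1 member, and the share of all genes was not counted in that setting.

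The 4 further lists of pathway genes are given for context. Of the HIF subunits and oxygen-sensing regulators, 12 of 15 genes were tested; 2 rose and 1 fell at 24 h, and 1 rose and 4 fell at 48 h (3 and 5 in the paired fit). In the main model these are 25% and 41.7% of the list, near the shares of all genes called (23.1% and 37.8%). The paired fit left the 24 h counts at 2 and 1, where it called 41.3% of all genes. At 48 h it called 54.8% of all genes. The median difference of the list was 0.01 and -0.11. ARNT, the beta subunit, differed by 0.04 and -0.10, and EPAS1, which encodes HIF-2 alpha, by -0.06 and 0.15, and none of these passed; these genes were chosen after their values were seen.

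EGLN1, the main prolyl hydroxylase PHD2, rose by 0.36 at 24 h (adjusted p = 0.0204) and differed by 0.20 at 48 h (0.125, 0.049 in the paired fit). Another of its probe sets differed by -0.14 at 24 h. HIF1AN, the asparagine hydroxylase that blocks the HIF transactivation domain, rose by 0.50 (adjusted p = 0.0102) and 0.33 (0.0387). Its other probe sets went the opposite way at 24 h, by -0.17 and -0.30, the latter with an adjusted p of 0.0461, so that no direction can be given for HIF1AN. The counts of the list include it as risen at both times. Its calls were lost in 4 of 20 alternatives at 24 h and in 10 of 20 at 48 h. VHL, the substrate receptor of the ligase that degrades HIF alpha, differed by 0.26 at 24 h (0.279). At 48 h the VHL difference was 0.38 (0.0849, 0.0185 in the paired fit), with group means near the filter value. RBX1, a subunit of that ligase, fell by 0.40 (0.0304) and 0.35 (0.037). At 48 h CITED2, an inhibitor that competes with HIF for its coactivators, fell by 0.63 (0.0268), with a second probe set at -0.63 that missed the threshold, and CREBBP, one of those coactivators, fell by 0.52 (0.0207), with a second probe set at 0.07. ELOB, a further ligase subunit and the fifth gene called at 48 h, fell by 0.36 (0.0399) and was chosen after its value was seen. The counts of this list were 0 at both times without replicate 1, 0 and 2 without replicate 2, and 0 and 1 without replicate 3. The shares of all genes called were then 4.97% and 14.4%, 20.9% and 32.5%, and 7.64% and 21.5%, in the same order. Over the alternatives EGLN1 at 24 h lost its call in 7 and turned sign in 1 of 20, RBX1 lost its call in 8 of 20 at each time, and CITED2 and CREBBP lost theirs at 48 h in 10 and 7 of 20. Leaving out single arrays gave list counts of 1 at 24 h (control 2 or 3, or Aa 1) and at 48 h 3, 0 or 2 (control 1, 2 or 3) and 0 or 1 (Aa 1 or 3). With single arrays left out the share of all genes called was not counted, so these counts cannot be set against it.

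Of 34 other HIF target genes 29 were tested. At 24 h 1 rose and 9 fell, and at 48 h 3 rose and 12 fell, 34.5% and 51.7% of the list, where 23.1% and 37.8% of all genes were called. Genes that fell made up 12.8% and 20.1% of all genes. The medians were -0.42 and -0.33. In the paired fit 3 rose and 14 fell at 24 h, and 4 rose and 17 fell at 48 h. That fit called 41.3% and 54.8% of all genes. Without probe sets of shared sequence 18 genes of the list were tested, and 6 and 9 were called, where 25.6% and 37.9% of all genes were. Without replicate 1 the count was 1 at 24 h and 6 at 48 h, and without replicate 3 it was 2 and 8. The share of all genes called was then 4.97% and 14.4% without replicate 1, and 7.64% and 21.5% without replicate 3. Without the first control array the list's count was 6 and 8, and without Aa array 3 it was 9 at 48 h. For these single arrays the share of all genes called was not counted. GYS1, the muscle-type glycogen synthase, fell by 2.47 at 24 h (SE 0.46, adjusted p = 0.00376) and fell by 3.15 (SE 0.46, 0.000583) at 48 h, from a mean of 8.52 to 6.06 and from 8.27 to 5.12. Its 48 h Aa arrays read 3.75, 5.76 and 5.85. The first of these lies below the filter value, so the size of the 48 h fall is less certain. TMEM45A, a membrane protein, fell by 1.51 (0.00668) and 2.07 (0.000756). Its 48 h Aa mean of 3.55 is below the filter value, so the size of that fall is less certain.

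P4HA1, a collagen prolyl hydroxylase subunit, fell by 0.72 (adjusted p = 0.00543) and 0.76 (0.00235), and VLDLR, a lipoprotein receptor, by 0.82 (0.0058) and 0.62 (0.0146). NT5E, the ectonucleotidase CD73, fell by 0.99 (0.00653) and 0.70 (0.0214), but its other probe sets differed by 0.55 and 0.50 at 48 h without passing. MXI1, a MYC antagonist, differed by -0.48 at 24 h (0.0549, 0.00219 in the paired fit) and fell by 0.91 at 48 h (0.00167). ANGPTL4, a secreted inhibitor of lipoprotein lipase, ran the other way: it rose by 1.51 (SE 0.41, 0.0219) and 3.00 (SE 0.41, 0.000414), from 4.89 to 6.40 and from 4.38 to 7.38. Its second probe set differed by 1.04 (0.168 over probe sets) and 3.06. On the first probe set the 48 h controls read 4.39, 4.38 and 4.37, near the filter value. The size of the 48 h rise is therefore less certain. The 24 h call was lost in 8 of 19 alternatives, and the 48 h call in 0 of 19. The other genes that rose at 48 h, named after their values were seen, were HMOX1, heme oxygenase, by 0.91 (0.0123) and TFRC, the transferrin receptor, by 0.74 (0.0245).

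Of 16 genes of HIF-driven glucose use 14 were tested, and 1 rose and 0 fell at 24 h (7.14%; 1 and 2 in the paired fit), while 1 rose and 3 fell at 48 h (28.6%). Of all genes 23.1% and 37.8% were called, and 41.3% in the paired fit at 24 h. The paired fit left the 48 h counts at 1 and 3, where it called 54.8% of all genes. The medians of the list were -0.06 and -0.04. The gene that rose at both times was PFKFB4, which makes an activator of glycolysis, by 1.18 (SE 0.25, adjusted p = 0.00707) and 1.06 (SE 0.25, 0.00756). HK2, an inducible hexokinase, fell by 0.65 at 48 h (0.0234), and GPI, glucose phosphate isomerase, by 0.62 (0.0405). These calls were lost in 9 of 20 alternatives for HK2 (adjusted p up to 0.215) and in 8 of 19 for GPI (up to 0.246). GPI differed by -0.39 at 24 h (0.217, 0.00261 in the paired fit). PGK1, phosphoglycerate kinase, fell by 0.35 at 48 h (0.00993). The PGK1 probe sets disagree: 5 had lower means with Aa, while 1558365_at was higher by 2.78 and 2.83 (adjusted p = 9.93e-06 and 8.57e-06 over probe sets). At 24 h HK1, HK2 and PFKP differed by -0.31, -0.45 and -0.26 and did not pass (HK2 at 0.0432 in the paired fit). Without replicate 1 the count was 0 at 24 h and 1 at 48 h, and without replicate 3 likewise 0 and 1. The share of all genes called was then 4.97% and 14.4% without replicate 1, and 7.64% and 21.5% without replicate 3. Without replicate 2 the list's count was 2 at 24 h, where 20.9% of all genes were called. Without the first control array or Aa array 3 it was 2 at 48 h. For these single arrays the share of all genes called was not counted.

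Receptors, partners and paralogs of the members numbered 28, of which 18 were tested. At 24 h 2 rose and 4 fell (33.3%), and at 48 h 1 rose and 3 fell (22.2%), with medians of -0.11 and -0.08. Of all genes 23.1% and 37.8% were called, so the list lay above that share at 24 h and below it at 48 h. Without probe sets of shared sequence 11 genes of the list were tested and 2 were called at each time. That setting called 25.6% of all genes at 24 h and 37.9% at 48 h, so the list was then above neither share. The paired fit called 3 up and 7 down at 24 h and 5 up and 4 down at 48 h, with 41.3% and 54.8% of all genes. VEGFC, the growth factor of lymphatic vessels and a paralog of VEGFA, fell by 1.62 (SE 0.33, adjusted p = 0.00625) and 3.49 (SE 0.33, 6.53e-05), while VEGFA rose. Its 48 h Aa mean of 3.28 is below the filter value. LOXL2, a paralog of LOX, fell by 0.54 (0.0304) and 0.69 (0.00651), and lost the 24 h call in 8 of 19 alternatives and the 48 h call in 1.

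PDK4, a paralog of PDK1, rose by 0.80 at 24 h (adjusted p = 0.0239) and differed by 0.42 at 48 h (0.16, 0.0356 in the paired fit). The 24 h call was lost in 10 of 20 alternatives (adjusted p up to 0.728), and its other probe sets differed by 0.84 and 0.38 without passing (0.0989 and 0.744). BECN1, an autophagy initiator that competes with BNIP3 for BCL2 proteins, rose by 0.32 (0.0417) and 0.71 (0.000475). Its 24 h call was lost in 9 of 19 alternatives (up to 0.259), and its second probe set differed by 0.24 at 24 h (0.147). Of the NDRG1 paralogs, NDRG4 fell by 1.15 (0.00624) and NDRG2 by 0.72 (0.0174) at 24 h, the latter call being lost in 7 of 18 alternatives. At 48 h NDRG4 differed by -0.48 (0.133, 0.0333 in the paired fit). The NDRG2 signals were near the filter value, with 5.61, 5.43 and 4.78 in the 24 h controls and 4.72, 4.62 and 4.32 with Aa. A second NDRG2 probe set differed by -0.59 at 24 h without passing (0.18 over probe sets). NDRG3 differed by 0.30 at 24 h (0.0569, 0.02 in the paired fit) and fell by 0.49 at 48 h (0.00432); its other probe sets differed by -0.12 and -0.05 at 24 h. Without replicate 1 the list's count was 0 at 24 h, without replicate 3 or the first control array it was 2, and without Aa array 3 it was 3. The share of all genes called at 24 h was 4.97% without replicate 1 and 7.64% without replicate 3. For the single arrays it was not counted.

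**Figure D3:**
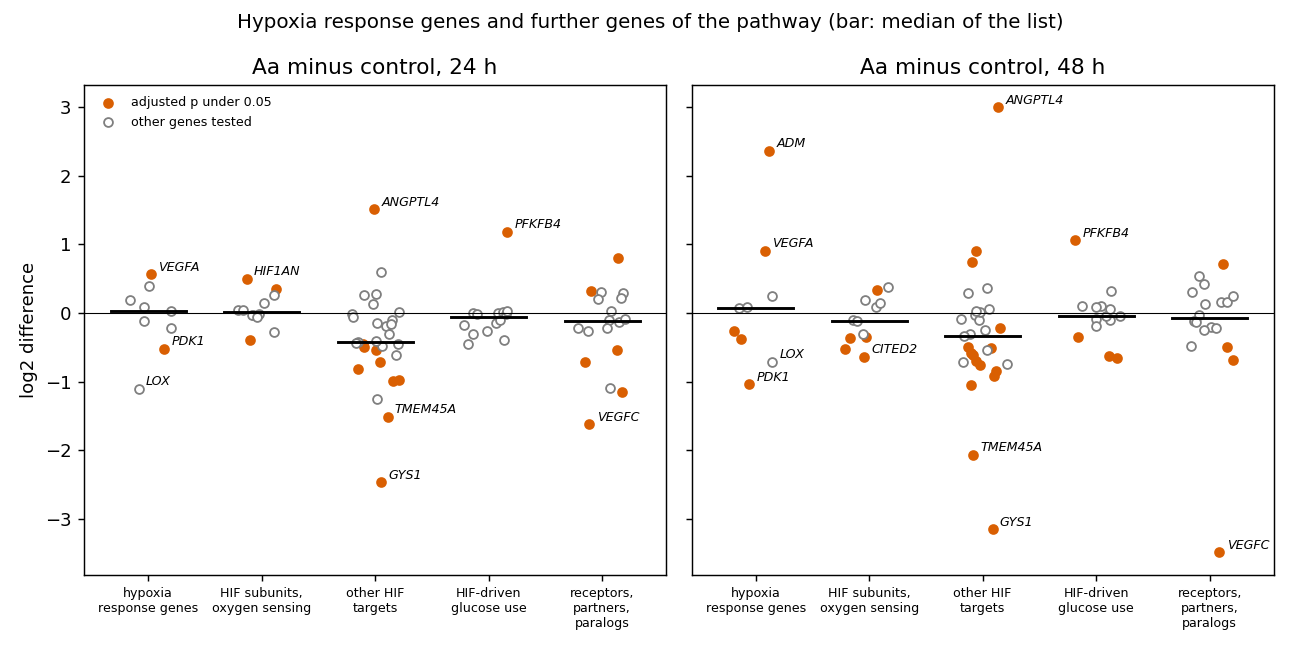
Log2 difference, Aa minus control (vertical axis), of each gene tested in the hypoxia response set (9 genes) and in the 4 further lists (12, 29, 14 and 18 genes) at 24 h and 48 h; filled points have an adjusted p under 0.05 and black bars mark the median of a list. The medians of the 29 other HIF targets lie at -0.42 and -0.33, and ADM, ANGPTL4, GYS1, TMEM45A and VEGFC lie farthest from 0 at 48 h.

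Across the 12 arrays, the non-member genes whose signal followed each member most closely were CD24 (Pearson's r = 0.952) for HIF1A, NUP205 (0.946) for EGLN3, PMAIP1 (0.965) for ADM and ZNF44 (0.982) for VEGFA. They were NUP93 (0.963) for SLC2A1, ERMP1 (0.98) for PDK1, MIOX (0.955) for BNIP3, ADSS1 (0.929) for NDRG1 and TOP2B (0.965) for LOX. Second places went to RBMS1 (0.90), ATAD5 (0.945), H1-2 (0.96), ANGEL2 (0.975), MICAL2 (0.933), UMAD1 (0.98), GCA (0.942), IFITM2 (0.929) and AFDN (0.923) in the same order. These are the highest of 10791 correlations per member, over arrays that share groups and replicate numbers, and are given as a description.

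The length of a gene's span in the annotation was compared with its difference as a description. Over the 9 members Spearman's rho was -0.27 at 24 h and -0.40 at 48 h, and over 10785 genes it was -0.02 and -0.20. The longest member, PDK1 (169 kb), fell and the shortest, ADM (2.33 kb), rose. The median span was 26.9 kb for members and 30.5 kb for all genes.

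Array medians were 2.93 to 3.01. A larger 3′ over 5′ signal of actin marks more degraded RNA; this log2 difference averaged 0.79 and 0.82 (control and Aa) at 24 h and 0.78 and 0.90 at 48 h. A probe set of the middle of 28S ribosomal RNA had means of 9.29 in controls and 10.96 with Aa at 24 h, and of 9.51 and 11.03 at 48 h; its part in the differences was not tested. Of 16 proximal tubule markers 13 had a probe set and 2, PAX8 and CDH6, passed the signal filter, while LRP2, CUBN, AQP1 and SLC34A1 stayed below it with group means of 2.1 to 3.1. All 5 epithelial markers passed, with a summed level of 14.76 to 14.91 in the 24 h controls and 14.46 to 14.64 with Aa, and overlapping ranges at 48 h. The summed level (log2 of the summed linear signal) of the tubule markers was 13.05 to 13.47 in the 24 h controls and 12.66 to 13.08 with Aa, and 12.91 to 13.09 and 11.65 to 12.26 at 48 h (controls, then Aa). It was lowest in the 48 h Aa group, where ADM was highest; its part in the result was not tested. Markers of other cell types that passed were 3 of 7 for fibroblasts (COL1A1, DCN and LUM), 1 of 6 for distal nephron (SCNN1A), 1 of 5 for endothelium (CLDN5) and 0 of 5 for leukocytes. At 48 h the summed level of the distal nephron list was 9.48 to 9.54 in controls and 10.12 to 10.49 with Aa, and that of the fibroblast list 12.15 to 12.40 and 11.60 to 12.07. Such sums rest mostly on the brightest genes. In the fibroblast list the 48 h means (control, then Aa) were 11.88 and 11.43 for DCN and 9.62 and 9.40 for LUM. COL1A1 went the other way, with 7.97 and 8.32. SCNN1A had 9.46 and 10.26. The part of these lists was not tested either. At 24 h the control and Aa ranges of both lists overlapped, and those of the endothelium and leukocyte lists overlapped at both times.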

How the data were processed

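The authors deposited a table of log2 signals for 54675 probe sets on 12 Affymetrix arrays, normalised with GCRMA per the submitters' processing notes (version and genome build not given in the sources used here). The values run from 0.82 to 16.25. Probe sets were named through the platform annotation: 41097 have 1 gene, 1801 several and 11777 no entry, and the symbols of 41043 probe sets were found in RefSeq GRCh38.p14. Probe sets averaging 4 or more over all arrays were kept, and the brightest stood for a gene, which left 10791 of 19775 genes; for probe sets, 22515 were tested.

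A model of 4 group means over all 12 arrays was fitted with limma 3.58.1 in R 4.3.3 (lmFit, eBayes, 8 residual and 2.76 prior degrees of freedom), with Benjamini-Hochberg adjustment over all genes and two-sided tests. The contrasts were Aa against control at each time, their difference, and control at 48 h against 24 h. The number of arrays limits the precision.

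Arrays with the same replicate number correlated after removal of group means (18 pairs, r = 0.349 to 0.619; 36 other pairs, -0.49 to -0.0107). The numbers therefore pair the samples, a pairing read from the data, and the block was used in the paired fit.

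The members and lists were chosen with earlier results of these data known. Named genes were all members, up to 4 genes of each list with the smallest p per time, and the 2 best correlated genes of each member. Alternatives varied normalisation, filter, probe set, variance model, block and arrays; those for list counts, list genes and the differences between times of ADM and NDRG3 were added after the data were seen. The code was tested on simulated data.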

Additional observations from a re-analysis of the deposited data

Results flagged for a closer look

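The effect of Aa on NDRG3, the paralog of NDRG1, differed between times: the difference at 48 h minus that at 24 h was -0.79 on the log2 scale (limma interaction, adjusted p = 0.0422). On 217286_s_at, the brightest of its 3 probe sets, all 3 same-number pairs were higher with Aa at 24 h (0.26 to 0.39) and all 3 lower at 48 h (-0.73 to -0.31). Over 24 alternatives the difference stayed below 0, from -0.86 to -0.70, with adjusted p from 0.00814 to 0.496. It passed the threshold in 8 of them, the paired fit included (0.00814), and missed it in 16. It was 0.496 without replicate 1, 0.128 without replicate 2 and 0.243 without replicate 3. Among single arrays, those whose removal kept it past the threshold were control replicate 3 (0.0403) and Aa replicate 2 (0.0286) at 48 h. The turn of sign holds for that probe set alone: the other probe sets differed by -0.12 and -0.05 at 24 h and by -0.90 and -0.61 at 48 h. With the mean of the probe sets the difference between times was -0.71 (adjusted p = 0.0818), and with the probe set of largest spread -0.78 (0.196).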

How the results depend on the processing

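The 48 h changes of ADM, VEGFA and PDK1 kept their direction and call in all 20, 19 and 20 alternatives. HIF1A ran from -0.29 to -0.23 and BNIP3 from -0.43 to -0.32 at 48 h, with calls lost in 8 and 2 of 20. At 24 h the 2 members called became 4 with the replicate block, 1 without shared-sequence probe sets (4 members tested), 0 with the probe set of largest spread, and 0 to 2 when a replicate or array was left out (0 without replicate 1). These settings called 41.3% of all genes (block), 25.6% (no shared sequence), 26.7% (largest spread) and 4.97% (without replicate 1). The 5 called at 48 h became 3 to 5 when one was left out (3 without replicate 1 or 3). For the difference between times, 0 became 1 with the replicate block. Between control times 0 became 1 with a filter at mean 3, with no filter and with eBayes with trend, 2 with the replicate block, and 0 to 1 on leaving one out (1 without the third control array at 48 h). Between these times the block called 17.8% of all genes. The shares in the other settings were not counted, so a count of 1 cannot be set against them. The 4 probe sets called at 24 h became 2 without a filter, 10 with the replicate block and 0 to 4 on leaving one out (1 without Aa array 3, 2 without control array 2). The 11 called at 48 h became 13 with the replicate block and 5 to 11 on leaving one out (7 without Aa array 1 or 3). The shares of all probe sets called were not counted in these settings. Over genes they were 10.7% at 24 h without a filter, and 41.3% and 54.8% at 24 h and 48 h with the replicate block. With single arrays left out no share of genes or probe sets was counted. The block changed no call on a member gene other than those given above with the paired fit.

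Differences near 0 turned sign on leaving one array or replicate out: EGLN3 at 48 h spanned -0.13 to 0.64 (negative without the first control array), SLC2A1 at 48 h -0.0505 to 0.26, NDRG1 at 24 h -0.30 to 0.0627 and at 48 h -0.0637 to 0.23, and HK1 at 48 h -0.036 to 0.22. Other probe set rules turned EGLN1 at 24 h to -0.14 and NDRG3 at 24 h to -0.12 (largest spread), NT5E at 48 h to 0.12 (mean), and PGK1 to 0.21 and 0.0743 (mean) or 2.78 and 2.83 (largest spread) at 24 h and 48 h. The cause was not tested. Splits of calls into higher and lower moved little with the scaling (1108 and 1386 at 24 h, 1200 and 1317 after quantile normalisation). GCRMA signals below about 4 limit the size of falls such as that of VEGFC.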
